A study of Solanum virginianum with 24 samples.

Results

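Between 10 and 20 days post anthesis (dpa) the fruit of eggplant, grown here as cultivar PPL, passed from early to later growth. The change over those 10 days was measured as the 3 arrays of 20 dpa against the 3 arrays of 10 dpa. Each array was first taken per probe set as its log2 value minus the mean of the 3 arrays of 0 dpa that had been normalized with its stage. The comparison rests on 12 of the 24 columns of the series, that is 3 arrays of 10 dpa, 3 of 20 dpa and the 3 arrays of 0 dpa in each of the 2 sets, and it covered all 10101 probe sets that are not controls. The other stages, 5 and 50 dpa, entered the estimate of the spread and the comparisons of successive steps.

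Flowers of glasshouse plants were hand-pollinated on the day they opened, and each stage is represented by 3 samples of whole fruit that the labels call biological replicates. No treatment or genotype differed between the groups. Stage was the only biological factor in the labels, and it coincided with the normalization set, since each later stage was normalized in its own set. The title names Solanum melongena, whereas the organism field of each sample says Solanum virginianum. Labelled RNA was hybridised to the tomato GeneChip, an array of short probes designed on tomato transcripts. A value is therefore the signal of eggplant RNA on tomato probes, to which another member of the same gene family can contribute, and symbols are those of tomato. Of the 10101 probe sets, 909 carried 1 symbol, which stand for 802 genes. The deposited values were centred per probe set within each set, so they hold no signal level, and levels of different genes cannot be compared.

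A fleshy fruit of the nightshade family grows first by cell division and then by cell expansion, while the pericarp is green and photosynthetic. Expansion needs loosening of the cell wall by expansins, xyloglucan endotransglucosylases and glycosidases. In tomato, ripening follows a burst of ethylene, which is made from S-adenosylmethionine by ACC synthase and ACC oxidase, and it is directed by MADS-box and NAC transcription factors. Eggplant is usually described as a fruit that ripens without such a burst and is rich in chlorogenic acid.

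From 10 to 20 dpa, 3465 of the 10101 probe sets differed (34.3%; limma, adjusted p under 0.05). Of these, 1713 were higher at 20 dpa (17.0%) and 1752 were lower (17.3%). The difference reached 2-fold for 462 probe sets (4.57%), 248 of them higher (2.46%) and 214 lower (2.12%). The 3 values of one stage lay wholly above or below the 3 of the other in 48.2% of all probe sets. The median difference over all probe sets was -0.0034 on the log2 scale, and the quartiles were -0.22 and 0.20. Of the 802 genes with a symbol, 326 were called (40.6%), 137 higher (17.1%) and 189 lower (23.6%). Counts within the gene lists are to be read against these shares, and a list count near them is not a result about that list. All list genes are genes with a symbol. Falls in a list are thus also to be read against 23.6%, where only the 17.3% of all probe sets is given beside them. In whole fruit, fewer cells of a type and less RNA per cell cannot be told apart, and this holds for every difference given here.

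**Figure D1:**
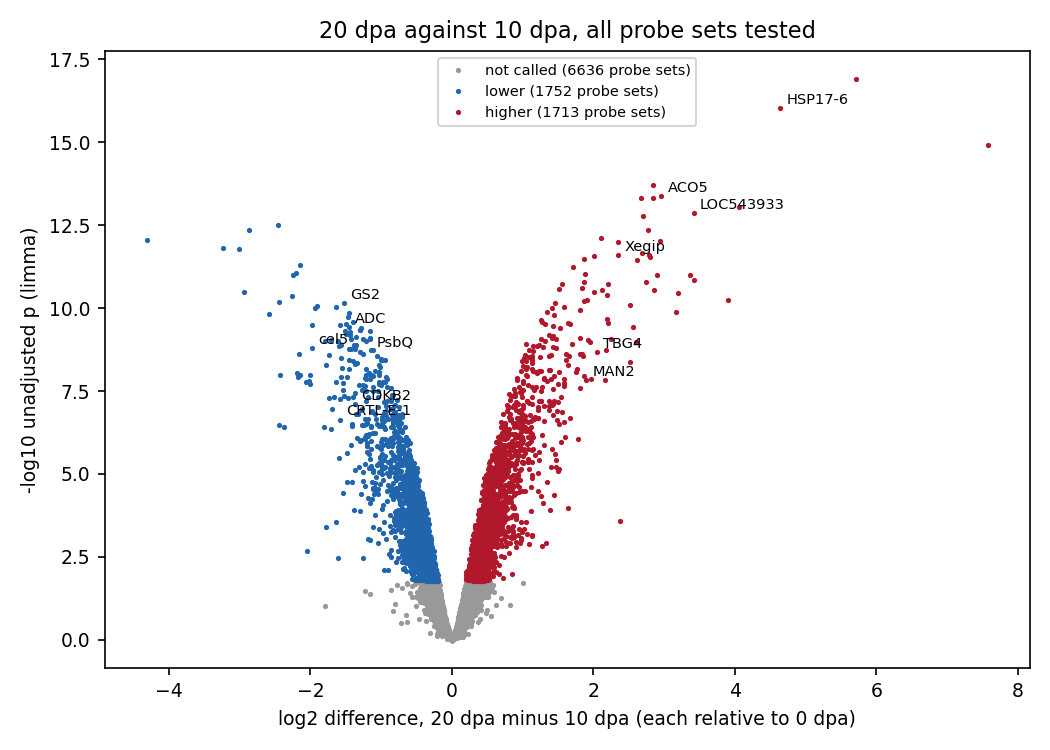
Each point is 1 of the 10101 probe sets, with the log2 difference between 20 and 10 dpa on the horizontal axis and -log10 of the unadjusted limma p on the vertical axis. Red points (1713) were higher at 20 dpa and blue points (1752) lower at an adjusted p under 0.05, and HSP17-6 and ACO5 stand far to the right among the labelled genes.

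Control probe sets were read on the same arrays. All 27 probe sets for spikes added at hybridisation were above 0 at 20 against 10 dpa, by 0.15 to 0.46 on the log2 scale with a median of 0.30, and 12 of them passed the test. Of 42 probe sets for labelling spikes 1 passed, with a median of 0.14. The 17S and 25S ribosomal RNA probe sets were higher by 1.13 and 1.81. Of 20 housekeeping probe sets 5 were higher and 1 was lower. Of 17 tag probe sets, another class of array control, 2 were lower and 5 lay above 0, with a median of -0.12. The 5′ probe set taken against the 3′ probe set of the same transcript shifted by 0.15 ± 0.16 for actin, 0.26 ± 0.13 for gapdh, 0.039 ± 0.064 for ef1a and 0.36 ± 0.13 for ubiquitin (log2, SE), and the ranges of the 2 stages did not overlap for gapdh and ubiquitin. The ef1a shift used the 5′ probe set AFFX-Les-ef1a-5_at, which differed by 0.16. The other 5′ probe sets of ef1a were higher by 0.62 and 0.35, and its 3′ probe set differed by 0.12. GlutTrans and PhyB2 were not in that comparison. GlutTrans was higher by 0.64 at 5′ and by 1.05 at 3′, and PhyB2 differed by 0.06 and -0.11. The part of these shifts in the differences of genes was not tested.

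Among genes with a symbol, HSP17-6 showed the largest rise. It encodes a small heat shock protein, a chaperone that holds unfolding proteins. Relative to 0 dpa, its 3 arrays of 10 dpa read -0.78, -0.57 and -0.77, and those of 20 dpa read 3.91, 3.996 and 3.92. The arrays of each stage lie close together and the stages are far apart, with a 25.02-fold rise (log2 4.65 ± 0.081 SE, adjusted p = 4.78e-13, limma). Under the alternative ways of processing the log2 rise lay between 4.37 and 5.09 and passed in each. Its mean at 10 dpa differed from that at 5 dpa by -0.80, a difference with no test of its own here. The step from 10 to 20 dpa lay above that earlier step by 5.45 ± 0.14 (adjusted p = 6.57e-11). At 50 dpa the transcript stood at 4.70 relative to 0 dpa.

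Heat shock proteins as a list were divided by size of change. Of 8 measured genes 4 rose and 1 fell, against 17.0% higher and 17.3% lower of all probe sets, with a median of 0.35. HSP21, the small heat shock protein of plastids, rose by 0.86 ± 0.18 from values of -0.17 to 0.04 to values of 0.60 to 1.11. MTSHP, of mitochondria, rose by 0.35, and HSC80, an HSP90 family chaperone, by 0.36. HSP17.4 fell by 0.28, and this call was lost under 9 of 17 alternatives, among them the fit on the 6 arrays alone, the methods' t-test, the replicate block and leaving out 10 dpa replicate 1 or 2, 20 dpa replicate 1 or 3, or 0 dpa replicate 3. In a fit that treats the 0 dpa columns as samples the fall and the rises of MTSHP and HSC80 did not pass, and MTSHP was also lost in the methods' t-test and without 10 dpa replicate 1 or 2, 20 dpa replicate 1 or 3, or 0 dpa replicate 2. The next largest rise of the list after HSP17-6 was under 2-fold.

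In ethylene synthesis 2 of 13 genes rose and 1 fell, against 17.0% higher and 17.3% lower of all probe sets. The falling count was 2 with only the 6 arrays, in the methods' t-test, with the 0 dpa median as base, with the replicate block, and without 10 dpa replicate 1 or 0 dpa replicate 1. ACO5, an ACC oxidase gene of the last step, was already high at 10 dpa relative to 0 dpa, with 3.37, 3.41 and 3.42, and read 6.36 on each of the 3 arrays of 20 dpa. The stages did not overlap, and the rise was 7.79-fold (log2 2.96 ± 0.083, adjusted p = 7.12e-11). Under the alternatives the log2 rise of ACO5 lay between 2.21 and 2.97, a range wider than the SE, and it passed in each. The difference from the step from 5 to 10 dpa, 0.40 ± 0.14, did not pass (adjusted p = 0.0576). At 50 dpa the transcript stood at 4.79. SAM1, a gene for S-adenosylmethionine synthetase, moved from between -0.96 and -0.80 at 10 dpa to between 0.28 and 0.41 at 20 dpa, a rise of 1.203 ± 0.078 (adjusted p = 1.18e-07).

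The other ethylene synthesis genes behaved otherwise. ACO4, another ACC oxidase gene, fell by 0.64 ± 0.10 from values of -0.78 to -0.57 to values of -1.47 to -1.09. None of the 8 ACC synthase genes passed the adjusted test by limma or by the methods' t-test, and 1 had an unadjusted limma p under 0.05. Their differences lay between -0.33 for ACS6 and 0.061 for ACS3. The list as a whole had a median of -0.16. ACO6 differed by 0.13 on the probe set used here, which did not pass, while 1 of its 2 other probe sets was lower by 0.98.

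Among 15 ethylene receptor and signalling genes 2 rose and 1 fell, against 17.0% higher and 17.3% lower of all probe sets. The rises were EIL4, an EIN3-like transcription factor, by 0.75 ± 0.089 and ETR5, a receptor, by 0.52 ± 0.080. Both stood below their 0 dpa level at 10 dpa and remained below it at 20 dpa: EIL4 moved from between -1.74 and -1.49 to between -0.89 and -0.77. TCTR1v fell by 0.30, a call lost without any 1 of the 10 dpa arrays, 20 dpa replicate 1 or 2, or 0 dpa replicate 1, and with the 0 dpa columns as samples. Without 0 dpa replicate 2, or with the 0 dpa median as base, 4 genes were higher. Of 24 ethylene response factors and ethylene-responsive genes 2 rose (8.33%) and 3 fell (12.5%), shares not above those of all probe sets. The median was 0.02, and 5 fell without 10 dpa replicate 1. PTI6, an ERF family factor, rose by 0.90 ± 0.18 and DDTFR18 fell by 0.64 ± 0.12. E8, an ethylene-responsive fruit gene of tomato, differed by -0.19 ± 0.14 (adjusted p = 0.333).

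Regulators of fruit identity and ripening changed by less than 2-fold where they passed the test. Of 11 MADS-box, NAC and related genes 4 rose (36.4%) and 1 fell (9.09%), against 17.0% higher and 17.3% lower of all probe sets. The median was 0.15. TDR6, a MADS-box gene, read -0.51, -0.45 and -0.36 at 10 dpa and 0.24, 0.22 and 0.15 at 20 dpa, a rise of 0.64 ± 0.077. NOR, the NAC factor required for ripening in tomato, rose by 0.54 ± 0.099 from values of 0.04 to 0.08 to values of 0.44 to 0.81. TAGL1, an AGAMOUS-like gene of fleshy fruit, rose by 0.44 ± 0.097, and this call was lost in the methods' t-test. NAC1 rose by 0.39 and MADS1 fell by 0.30, and the call of MADS1 was lost with the 0 dpa columns as samples. RIN, the MADS-box master regulator of ripening in tomato, differed by 0.15 ± 0.14 (adjusted p = 0.456) with overlapping arrays, and TDR4 by -0.11 ± 0.080 (adjusted p = 0.335).

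Of 8 genes of the photosystems and light harvesting 7 were lower at 20 than at 10 dpa, against 17.3% of all probe sets, with a median of -0.56. PsbQ, one of the outer proteins of the water-splitting site of photosystem II, read 3.71, 3.76 and 3.85 relative to 0 dpa at 10 dpa and 2.58, 2.66 and 2.63 at 20 dpa. The stages are well apart, with a 2.22-fold fall (log2 -1.15 ± 0.077, adjusted p = 1.47e-07), yet every array of 20 dpa was still far above 0 dpa. PSBP, another protein of that site, fell by 0.40 ± 0.070, from between 4.08 and 4.19 to between 3.70 and 3.79.

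PETE, the electron carrier plastocyanin, fell by 0.84 ± 0.082. CAB6A, a light-harvesting chlorophyll protein, fell by 0.61 ± 0.077 and PSBO by 0.50 ± 0.090. CAB5 fell by 0.86 ± 0.24 with more scattered arrays, 1.09 to 1.82 against 0.14 to 1.08, and its call was lost with the 0 dpa columns as samples, under the methods' t-test, and without 10 dpa replicate 3 or 20 dpa replicate 1. PSBR, a subunit of photosystem II, had overlapping arrays, with 1.45 to 1.55 at 10 dpa and 1.47 to 1.51 at 20 dpa (-0.01 ± 0.070, adjusted p = 0.906). All 8 genes stood higher at 10 than at 5 dpa on average. In the test of the step itself, each of the 8 lay below its step from 5 to 10 dpa, against 13.5% of all probe sets. That test used the 10 dpa arrays on both sides.

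Of 4 measured genes of chlorophyll and tetrapyrrole synthesis 3 fell, against 17.3% of all probe sets, with a median of -0.48. GSA-AT, which makes aminolevulinate, the precursor of chlorophyll, fell by 0.77 ± 0.11 from values of 1.36 to 1.78 to values of 0.74 to 0.92. POR2, the light-dependent reductase of the late pathway, fell by 0.62 ± 0.093, and the 10 dpa arrays, 2.16 to 2.32, all lay above the 20 dpa arrays, 1.502 to 1.75. HO2, a heme oxygenase of the branch to the phytochrome chromophore, fell by 0.34, and AUREA of that branch differed by -0.07 (adjusted p = 0.789). The call of HO2 was lost with the 0 dpa columns as samples, in the methods' t-test and without 10 dpa replicate 1.

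**Figure D2:**
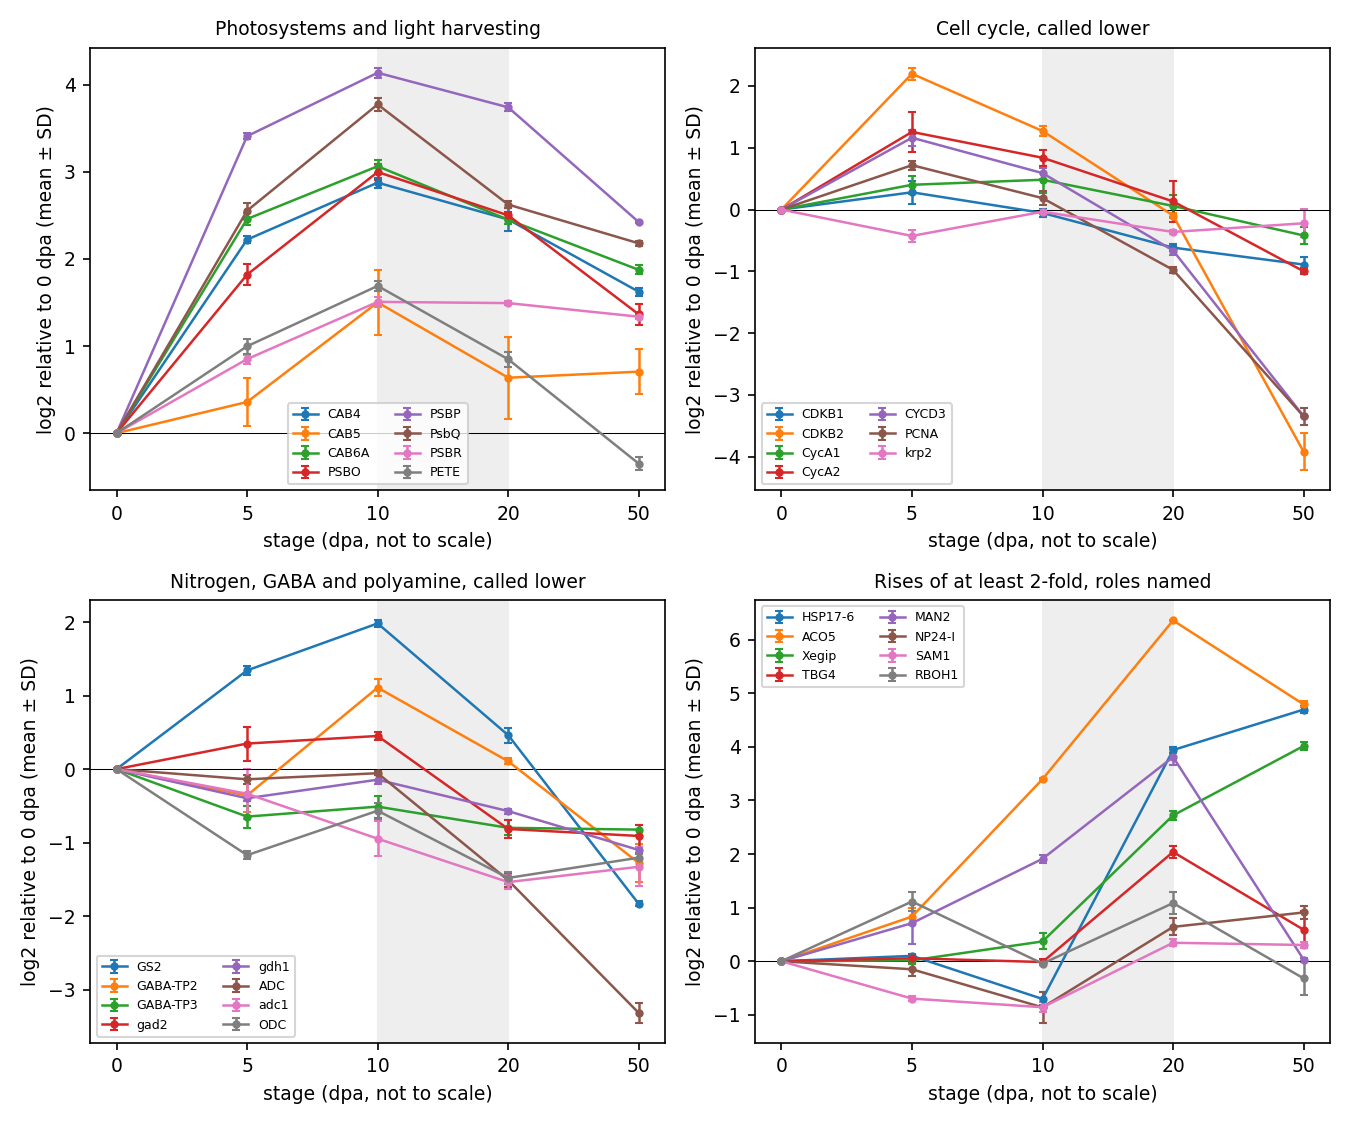
Mean log2 value relative to 0 dpa with SD over 3 arrays at each stage, with the interval from 10 to 20 dpa shaded and stages spaced evenly, not to scale. Photosystem genes peak at 10 dpa, cell cycle genes go on falling to 50 dpa (CDKB2 to -3.92), nitrogen genes such as GS2 turn down after 10 dpa, and HSP17-6 leaves its early values only after 10 dpa.

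The plastid isoprenoid and carotenoid list moved in both directions. Of 17 genes 6 fell (35.3%) and 4 rose (23.5%), against 17.3% lower and 17.0% higher of all probe sets. The median was -0.23, and 2 rose without 10 dpa replicate 2, without 20 dpa replicate 2, in the methods' t-test and with the 0 dpa columns as samples. The 4 measured genes of the plastid isoprenoid precursor pathway, grouped here after their values were seen, all fell: DXS by 0.82 ± 0.089, HDS by 0.77 ± 0.085, ISPE by 0.76 ± 0.075 and DXR by 0.38 ± 0.071. CRTL-E-1, lycopene epsilon-cyclase of the branch to lutein, showed the largest fall. It read 2.31, 1.97 and 2.17 at 10 dpa and 0.24, 0.80 and 0.65 at 20 dpa, with no overlap (log2 -1.58 ± 0.16, adjusted p = 5.98e-06).

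Later carotenoid steps went different ways. ZDS, zeta-carotene desaturase, rose by 0.63 ± 0.077, and CrtR-b1, a beta-carotene hydroxylase, by 0.36 ± 0.069. VDE, violaxanthin de-epoxidase of the xanthophyll cycle, fell by 0.56 ± 0.092, a call lost with the mean of its probe sets. Psy1, phytoene synthase, the entry enzyme whose transcript rises in ripening tomato, differed by -0.23 ± 0.14 (adjusted p = 0.216) with overlapping arrays. Of 3 cytosolic isoprenoid genes 2 fell (66.7%), against 17.3% of all probe sets, with a median of -0.82. HMGR, which makes mevalonate, fell by 1.30 ± 0.24 (-0.27 to -0.14 against -1.71 to -1.35) and FPPS1, farnesyl diphosphate synthase, by 0.82 ± 0.092.

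Of 11 measured nitrogen, GABA and polyamine genes 8 fell and 3 did not pass, against 17.3% lower of all probe sets, with a median of -0.59, and 4 of the falls reached 2-fold. GS2, the glutamine synthetase of plastids that assimilates ammonium, read 1.93, 2.01 and 2.00 at 10 dpa and 0.57, 0.45 and 0.36 at 20 dpa. The stages were wholly apart, with a 2.87-fold fall (log2 -1.52 ± 0.078, adjusted p = 1.36e-08), and by 50 dpa the gene stood at -1.83. ADC, arginine decarboxylase of putrescine synthesis, was near its 0 dpa level at 10 dpa, -0.08 to -0.04, and read -1.57 to -1.41 at 20 dpa, a fall of 1.46 ± 0.085 (adjusted p = 4.78e-08).

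The gene gad2, a glutamate decarboxylase that makes GABA, fell by 1.27 ± 0.12, and GABA-TP2, a transaminase that breaks GABA down, by 1.00 ± 0.13. ODC, ornithine decarboxylase, fell by 0.91 ± 0.082, and gdh1, glutamate dehydrogenase, by 0.43 ± 0.071. The call of GABA-TP3 was lost under 10 of 17 alternatives and that of adc1 under 4, both in the methods' t-test. Of the other probe sets of adc1, those at -0.96 and -0.40 were called lower and that at 0.03 was not called. The falling count was 6 in the methods' t-test and without 10 dpa replicate 1 or 20 dpa replicate 2. The mean of GABA-TP2 at 10 dpa lay above that at 5 dpa by 1.47, and its step from 10 to 20 dpa lay below the earlier step (adjusted p = 7.89e-06). For 6 of the 11 genes the step lay below the step before it by the test of the difference, against 13.5% of all probe sets. The 3 genes that did not pass were gts1 (0.25), GABA-TP1 (0.15) and AMT1-2 (-0.17), and a second probe set of gts1 was higher by 0.56.

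Of 13 genes of the cell cycle and DNA replication 7 fell and 2 rose, against 17.3% lower and 17.0% higher of all probe sets, with a median of -0.33. CDKB2, a cyclin-dependent kinase of mitosis, read 1.37, 1.21 and 1.24 at 10 dpa and -0.04, -0.14 and -0.10 at 20 dpa. The arrays of 20 dpa were close to the 0 dpa level, with a 2.58-fold fall (log2 -1.37 ± 0.12, adjusted p = 2.60e-06). CYCD3, a D-type cyclin, fell by 1.25 ± 0.085, from between 0.51 and 0.69 to between -0.71 and -0.58. PCNA, the ring that holds DNA polymerase on its template, fell by 1.16 ± 0.091, from between 0.07 and 0.31 to between -1.04 and -0.94.

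The means of these 3 genes were already lower at 10 than at 5 dpa, with differences of -0.93 for CDKB2, -0.57 for CYCD3 and -0.53 for PCNA that had no test of their own here. The step from 10 to 20 dpa lay below that before it for CYCD3 (-0.68 ± 0.15, adjusted p = 0.00410) and PCNA (-0.63 ± 0.16, adjusted p = 0.0101), and the test did not pass for CDKB2 (-0.44 ± 0.22, adjusted p = 0.151). The steps span 10 and 5 days. CDKB1 fell by 0.56, CycA2 by 0.71, CycA1 by 0.42 and krp2, a CDK inhibitor, by 0.33. The calls of CycA1 and CycA2 were lost in the methods' t-test and with the 0 dpa columns as samples, that of CycA1 also with the replicate block and without 10 dpa replicate 2 or 20 dpa replicate 1 or 2, and that of krp2 without 10 dpa replicate 1 or 2, 20 dpa replicate 1 or 3, or 0 dpa replicate 1. The rises were cdc2A-2, an A-type cyclin-dependent kinase, by 0.82 ± 0.098, and CDKC by 0.35. MET1, a maintenance DNA methyltransferase gene outside the list that was chosen after its values were seen, fell by 1.01 ± 0.071.

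Cell wall genes moved in both directions within families. Xegip, an inhibitor protein of xyloglucan-specific endoglucanases, read 0.25, 0.54 and 0.33 at 10 dpa and 2.80, 2.63 and 2.73 at 20 dpa. It rose 5.10-fold (log2 2.35 ± 0.092, adjusted p = 1.17e-09) and went on to 4.02 at 50 dpa. Under the alternatives its log2 rise lay between 1.97 and 2.79 and passed in each. In the same list of 8 endoglucanase genes with their inhibitor, 2 rose (25%) and 3 fell (37.5%), with a median of -0.12. Of all probe sets 17.0% were higher and 17.3% lower. The gene cel5, an endo-beta-1,4-glucanase, fell from 1.28, 1.39 and 1.36 to -0.53, -0.77 and -0.61. This 3.94-fold fall (log2 -1.98 ± 0.13, adjusted p = 1.32e-07) took it from well above to below its 0 dpa level, and the step over these 10 days lay below that over the 5 days from 5 to 10 dpa by -0.88 ± 0.23 (adjusted p = 0.0116), with no account of the unequal lengths. CELLULASE fell by 0.99 ± 0.098, Cel1 fell by 0.62, a call lost after quantile normalization, and CEL8 rose by 0.44.

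Among 7 beta-galactosidase genes, whose products trim galactose side chains of the wall, 2 rose (28.6%) and 4 fell (57.1%), with a median of -0.28. Of all probe sets 17.0% were higher and 17.3% lower. TBG4 lay at its 0 dpa level at 10 dpa, with 0.00, 0.03 and -0.07, and read 1.90, 2.103 and 2.11 at 20 dpa. The rise was 4.15-fold (log2 2.05 ± 0.14, adjusted p = 1.59e-07), and by 50 dpa the gene was back at 0.59. TBG7 went the other way, from 1.60, 1.70 and 1.64 to 0.31, 0.15 and 0.44, a fall of 1.35 ± 0.15 (adjusted p = 1.68e-05). Relative to 0 dpa, TBG7 had the highest mean of the 7 genes at 10 dpa and TBG4 at 20 dpa. TBG3 rose by 0.78, while TBG1 fell by 0.78, TBG5 by 0.43 and TBG6 by 0.28. The call of TBG5 was lost without 10 dpa replicate 2, and that of TBG6 under 9 of 17 alternatives, among them leaving out 10 dpa replicate 1 or 3, 20 dpa replicate 1 or 2, or 0 dpa replicate 2.

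MAN2, an endo-beta-mannanase gene, rose from 1.99, 1.84 and 1.91 to 3.86, 3.93 and 3.63. The stages did not overlap, with a 3.73-fold rise (log2 1.90 ± 0.15, adjusted p = 6.75e-07). The difference from the step before, 0.70 ± 0.26, did not pass (adjusted p = 0.0626), and at 50 dpa MAN2 stood at 0.03. The other 2 mannanase genes, MAN1 (0.06) and Man4 (0.19), did not pass, and the list's median was 0.19.

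Of 10 xyloglucan and xylan enzyme genes 4 rose (40%) and 1 fell (10%), against 17.0% higher and 17.3% lower of all probe sets. The median was 0.15. In the methods' t-test 2 rose. XET2, a xyloglucan endotransglucosylase, rose by 0.96 ± 0.11 to between 0.07 and 0.14 from scattered values of -1.11 to -0.59. Its larger rise came later, and the step from 20 to 50 dpa exceeded this one by 3.21 ± 0.20 (adjusted p = 1.19e-07). XTH16 fell by 0.65 ± 0.086 on the probe set used and also on both of its other probe sets. Of 12 expansin genes 4 fell (33.3%) and 1 rose (8.33%), against 17.3% lower and 17.0% higher of all probe sets. The median was -0.05. The rise, of EXP5 by 0.30, was lost with the 0 dpa columns as samples, and 2 rose without 10 dpa replicate 3. EXPA4 fell from between -1.09 and -0.91 to between -2.55 and -2.28, by 1.43 ± 0.095 (adjusted p = 1.37e-07).

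EXPA10 fell by 0.73 ± 0.097, and exp9 fell by 0.78 ± 0.23, a call lost without 10 dpa replicate 1 or 20 dpa replicate 1. EXP1, the ripening expansin of tomato, differed by 0.01 ± 0.12 (adjusted p = 0.965). Of 9 polygalacturonase and pectin methylesterase genes 3 fell (33.3%) and 1 rose (11.1%), against 17.3% lower and 17.0% higher of all probe sets. The median was -0.04. PMEU1, a pectin methylesterase, fell by 0.995 ± 0.14 from values of 1.22 to 1.49 to values of 0.06 to 0.50, and XOPG1 fell by 0.73 ± 0.13. The rise, of TAPG4 by 0.34, was lost under 9 of 17 alternatives: with only the 6 arrays, with the 0 dpa columns as samples, in the methods' t-test, and without any 1 of the 10 dpa arrays, 20 dpa replicate 1 or 3, or 0 dpa replicate 2. Without 0 dpa replicate 3, or with the 0 dpa median as base, 2 genes rose. PG2, the ripening polygalacturonase of tomato, differed by 0.07 ± 0.11 (adjusted p = 0.661).

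**Figure D3:**
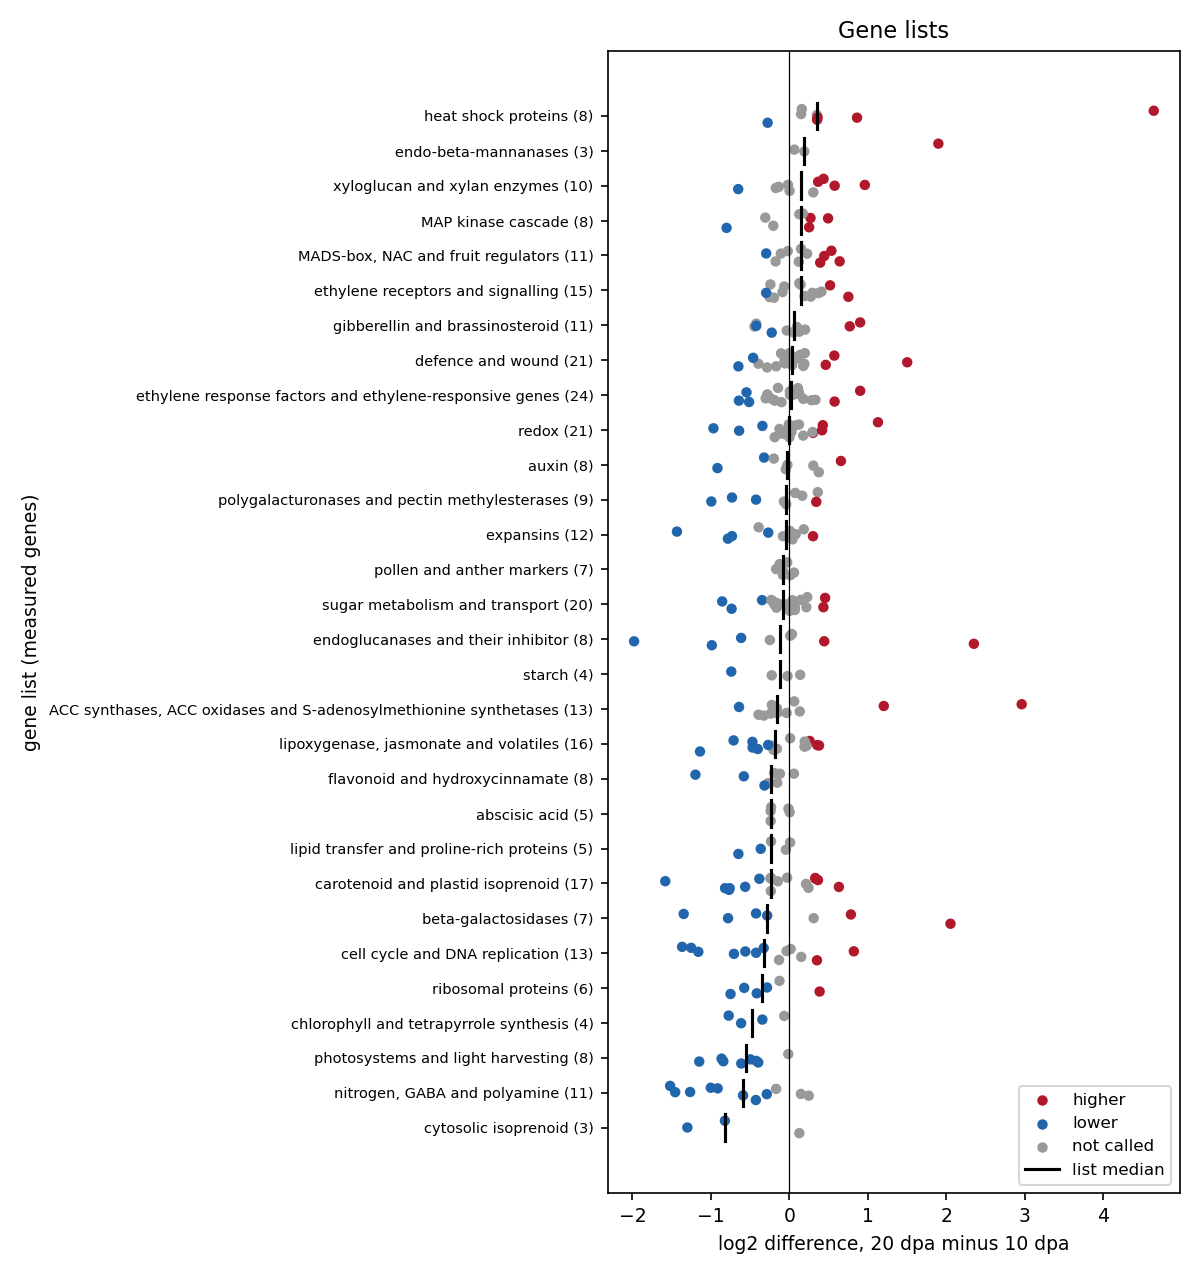
Log2 difference between 20 and 10 dpa of every measured gene in each list of at least 3 genes, with the number measured in brackets and the list median as a black bar. Nitrogen, photosystem and chlorophyll lists hold genes that passed as lower and none that passed as higher, with medians of -0.59, -0.56 and -0.48, while heat shock proteins have a median of 0.35.

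Of 8 flavonoid and hydroxycinnamate genes 3 fell (37.5%) and 5 did not pass. Of all probe sets 17.3% were lower, and of genes with a symbol 23.6%. The list's median was -0.23, and 1 fell without 10 dpa replicate 1, without 20 dpa replicate 3, in the methods' t-test and with the 0 dpa columns as samples. The gene hqt, whose enzyme joins caffeic to quinic acid to make chlorogenic acid, fell from 0.60, 0.98 and 0.70 to -0.30, -0.58 and -0.43, by 1.198 ± 0.14 (adjusted p = 2.45e-05). CHS2, a chalcone synthase, fell by 0.58 ± 0.19, a call lost without 10 dpa replicate 1 or 20 dpa replicate 2 or 3, with the 0 dpa columns as samples and in the methods' t-test. Of 16 lipoxygenase, jasmonate and volatile genes 6 fell (37.5%) and 3 rose (18.8%), against 17.3% lower and 17.0% higher of all probe sets. The median was -0.18. Only 1 rose without 10 dpa replicate 1 or 3, without 20 dpa replicate 2 or 3, or with the 0 dpa columns as samples.

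AOS, allene oxide synthase, which leads to jasmonate, fell from between 0.35 and 0.43 to between -0.96 and -0.48, by 1.14 ± 0.12 (adjusted p = 8.26e-06). AOC, the next enzyme, rose by 0.38 ± 0.082. Fad7, a plastid fatty acid desaturase, fell by 0.71 ± 0.13, and HPL, hydroperoxide lyase of the branch to green-leaf volatiles, by 0.47 ± 0.081. Both AOS and HPL use the same class of lipoxygenase products.

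Redox and defence lists held rises and falls. Of 21 redox genes 4 rose (19%) and 3 fell (14.3%), shares near those of all probe sets, with a median of 0.0005. RBOH1, an NADPH oxidase that makes superoxide, lay near 0 at 10 dpa, -0.08 to -0.02, and read 1.13, 0.86 and 1.26 at 20 dpa. It rose by 1.13 ± 0.15 (adjusted p = 6.01e-05) after standing higher at 5 than at 10 dpa, and the step differed from the earlier one by 2.29 ± 0.26 (adjusted p = 3.18e-05). SODCP.2, a chloroplast superoxide dismutase, fell by 0.97 ± 0.17 (0.54 to 1.32 against -0.21 to -0.08), and DHAR2, dehydroascorbate reductase, by 0.64 ± 0.074. The call of SODCP.2 was lost in the methods' t-test.

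Of 21 defence and wound genes 3 rose (14.3%) and 2 fell (9.52%), shares not above those of all probe sets, with a median of 0.03. The falling count was 1 without 10 dpa replicate 1 or without 20 dpa replicate 1. In the methods' t-test 0 fell. NP24-I, an osmotin-like protein, read -1.16, -0.58 and -0.84 at 10 dpa and 0.46, 0.68 and 0.78 at 20 dpa, so that it crossed its 0 dpa level (log2 1.502 ± 0.14, adjusted p = 2.38e-06). LAPA1, a leucine aminopeptidase, fell by 0.65 ± 0.13, a call lost in the methods' t-test. Among 8 MAP kinase cascade genes 3 rose (37.5%) and 1 fell (12.5%), against 17.0% higher and 17.3% lower of all probe sets. The median was 0.15. MPK3 rose by 0.49 ± 0.097 and MKK3 fell by 0.80 ± 0.16. Without 20 dpa replicate 2, 1 rose and 3 fell, 1 rose with the 0 dpa columns as samples, 2 fell with the 0 dpa median as base, and 1 rose and 2 fell with the replicate block.

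Of 8 auxin genes 2 fell and 1 rose, against 17.3% lower and 17.0% higher of all probe sets, with a median of -0.04. IAA16 and IAA17, both Aux/IAA repressors, gave -0.92 ± 0.076 and 0.66 ± 0.14, but the second probe set of each gave 0.27 and -0.36, neither past the test. The call of IAA17 was also lost with the 0 dpa columns as samples. IAA7 fell by 0.32, while its second probe set gave 0.22 (adjusted p = 0.121). The call of IAA7 was lost under 9 of 17 alternatives, among them the 0 dpa columns as samples, the methods' t-test, quantile normalization, the mean of its probe sets and leaving out 10 dpa replicate 1 or 2, 20 dpa replicate 2 or 3 or 0 dpa replicate 1. Of 11 gibberellin and brassinosteroid genes 2 rose and 2 fell, shares near those of all probe sets, with a median of 0.05.

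GA3ox1, which makes active gibberellin, rose by 0.90 ± 0.13 from values of -0.77 to -0.28 to values of 0.30 to 0.52, and 20ox-3, of the step before it, rose by 0.77 ± 0.19. The call of 20ox-3 was lost in the methods' t-test and with the 0 dpa columns as samples. CYP85A1, a brassinosteroid oxidase, fell by 0.42 ± 0.098, and the DELLA repressor GAI by 0.23 ± 0.073. The falling count was 1 without 10 dpa replicate 1 or 2, 20 dpa replicate 1 or 2, or 0 dpa replicate 2, with the 0 dpa columns as samples and with the replicate block. Of 5 abscisic acid genes 0 passed by limma, 0 had an unadjusted p under 0.05 and 0 passed the methods' t-test, with a median of -0.23. In the same list 3 were lower without 20 dpa replicate 3: TAS14 differed by -0.24 ± 0.15, FLACCA by -0.24 ± 0.16 and LE16 by -0.23 ± 0.13.

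Of 20 sugar metabolism and transport genes 2 rose (10%) and 3 fell (15%), shares not above those of all probe sets, with a median of -0.08. The rising count was 4 without 0 dpa replicate 1 or with the 0 dpa median as base. The 2 fructokinase genes called moved apart: FRK2 rose by 0.46 ± 0.066 (0.42 to 0.45 against 0.88 to 0.92) and FRK3 fell by 0.86 ± 0.077 (0.26 to 0.30 against -0.62 to -0.50). HT1, a hexose transporter, fell by 0.74 ± 0.13. The cell wall invertase gene lin5 differed by 0.22 ± 0.12 (adjusted p = 0.190) and LIN7 by -0.17 ± 0.11. Of 4 starch genes, with a median of -0.12, 1 fell (25%), against 17.3% of all probe sets. It was AGPL3, a large subunit of ADP-glucose pyrophosphorylase, by 0.74 ± 0.11, a call lost with the 0 dpa columns as samples, while AgpL1 differed by -0.22 and BMY3, a beta-amylase, by 0.14.

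Of 6 ribosomal protein genes 4 fell (66.7%) and 1 rose (16.7%), against 17.3% lower and 17.0% higher of all probe sets. The median was -0.35. L23 fell by 0.75 ± 0.085 and RPS25 by 0.58 ± 0.18, while RPL37 rose by 0.39 ± 0.078. RPS25 was lost without 10 dpa replicate 1 or 2 or 20 dpa replicate 1 or 2. Of 5 lipid transfer and proline-rich protein genes 2 fell (40%), against 17.3% of all probe sets, with a median of -0.23. TSW12 fell by 0.65 ± 0.13, and ltpg1 fell by 0.37 ± 0.12, a call lost without 10 dpa replicate 1 or 3 or 20 dpa replicate 1 or 3, with the 0 dpa columns as samples and in the methods' t-test. Of 2 aquaporin genes Aqp2 fell by 0.61 ± 0.12 and TIP differed by -0.64 ± 0.24 (adjusted p = 0.0557), which passed without 20 dpa replicate 3, without 0 dpa replicate 3, with only the 6 arrays, with the 0 dpa median as base and with the replicate block.

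Whole fruit also holds seeds and remnants of the flower. Of 7 pollen and anther markers 0 passed by limma, 0 had an unadjusted p under 0.05 and 0 passed the methods' t-test, with a median of -0.08 and a range from -0.17 for LIN7 to 0.06. Stig1 was at -0.12 ± 0.13. Without 10 dpa replicate 3, 1 of them was lower. Of 2 seed maturation markers LEA14 fell by 0.52 ± 0.079 and MAN1 differed by 0.06 ± 0.15. MAN2, counted above with the mannanases, was also set down as a seed gene when markers were chosen, and it rose by 1.90. The share of seed in each fruit was not recorded, and its part in the results was not tested.

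The remaining large changes fell on genes outside the lists. Among the 15 largest rises were CCR1 (1.59 ± 0.13), CCS (1.43 ± 0.12) and CIP2b (1.41 ± 0.096), with LOC543933 as the second largest (3.42 ± 0.11). LOC543933 read 0.91, 1.27 and 1.11 at 10 dpa and 4.59, 4.40 and 4.56 at 20 dpa. LOC544153 (1.38), LOC543802 (1.07) and LOC543605 (1.06) made up the rest. VPE5, a vacuolar processing enzyme gene chosen after its values were seen, rose by 1.06 ± 0.082, and both of its other probe sets also rose.

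Among the 15 largest falls were LOC544001 (-2.24 ± 0.097), LOC543515 (-2.15 ± 0.088), LePIP1 (-1.81 ± 0.19), ST2 (-1.62 ± 0.10), LOC543698 (-1.59), LOC543937 (-1.57) and P18 (-1.49). LOC544001, the deepest fall, dropped from above to below its 0 dpa level, 1.16 to 1.39 against -1.04 to -0.81. AGP-1, an arabinogalactan protein, fell by 1.42 ± 0.21. In all, 17 of the 802 genes with a symbol rose and 31 fell by at least 2-fold with arrays that did not overlap. Over all probe sets 2.46% rose and 2.12% fell by at least 2-fold, counted without the rule on overlap.

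**Figure D4:**
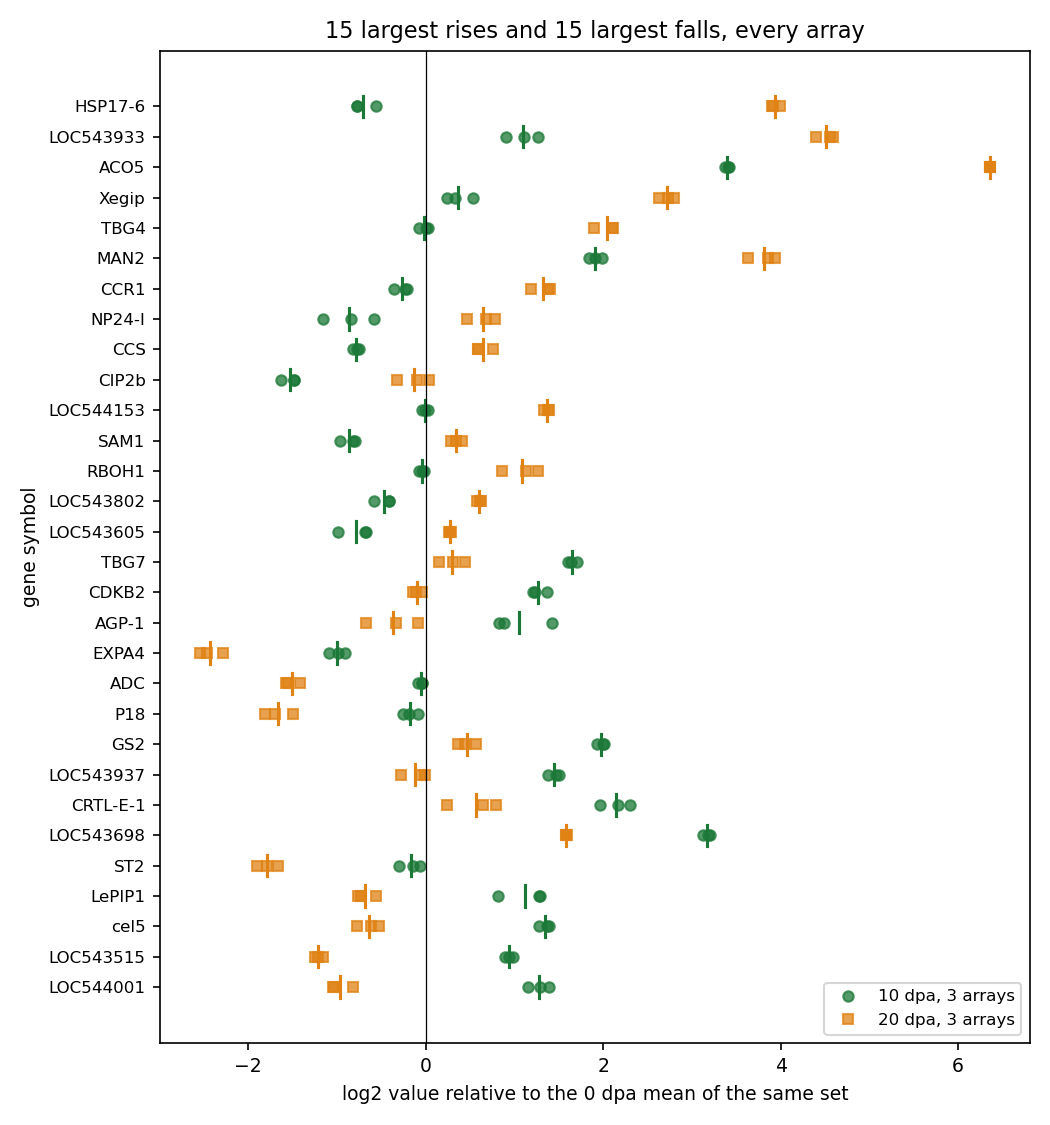
Log2 value of every array, taken against its own 0 dpa mean, for the 15 largest rises and 15 largest falls among genes with a symbol, with circles for the 3 arrays of 10 dpa, squares for those of 20 dpa and a bar at each mean. No gene's stages overlap, which the rule for choosing them required, and HSP17-6 spans the widest gap, from -0.70 to 3.94.

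Of the 9192 probe sets that carry no symbol here, which are most of those tested, 229 were higher and 182 lower by at least 2-fold. Over all probe sets the shares were 2.46% and 2.12%. LesAffx.71476.1.S1_at read 0.26, -0.24 and 0.04 at 10 dpa and 7.57, 7.69 and 7.52 at 20 dpa. It was at its 0 dpa level at 5 and 10 dpa, rose by 7.58 ± 0.16 (adjusted p = 4.00e-12), and was at 3.49 at 50 dpa. LesAffx.48174.1.S1_at rose by 5.71 ± 0.084, from between -0.10 and 0.09 to between 5.69 and 5.74, and was at 6.04 at 50 dpa. Les.2474.1.S1_at fell by 4.31 ± 0.15, from between 0.15 and 0.24 to between -4.31 and -4.00, and Les.3055.1.S1_at by 3.24 ± 0.12.

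The step from 10 to 20 dpa was also set against its neighbours over all probe sets. It differed from the step from 5 to 10 dpa in 2846 probe sets (28.2%), with 1484 above it (14.7%) and 1362 below (13.5%). The step from 20 to 50 dpa differed from it in 2443 probe sets (24.2%), with 1237 above (12.2%) and 1206 below (11.9%). The first test shares the 10 dpa arrays between both steps and the second the 20 dpa arrays, so a deviation of those arrays enters both sides with opposite sign. The steps span 5, 10 and 30 days.

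Some genes that rose by 20 dpa had a lower mean at 50 dpa, and the next step was tested against this one. For MAN2 the step from 20 to 50 dpa lay below this one by -5.68 ± 0.26, for ACO5 by -4.53 ± 0.14 and for TBG4 by -3.51 ± 0.24. LOC544153 went from 1.37 at 20 dpa to -1.75 at 50 dpa. HSP17-6, Xegip and NP24-I had higher means at 50 than at 20 dpa. Among the falls, GS2 and CDKB2 had still lower means at 50 dpa, and for CDKB2 the later step lay below this one by -2.46 ± 0.22.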

How the data were processed

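Eggplant fruit of 5 stages was hybridised to the tomato GeneChip. The deposited log2 values were made by the authors with RMA in GeneSpring GX 11.5, per the labels and the series' design text, 1 set of 6 columns for each later stage with the 3 arrays of 0 dpa. Over the 6 columns of a set, 100% of the probe sets had a median within 1e-05 of 0, so the log2 values were centred per probe set. Their direction was taken as positive for higher signal, which could not be checked, and no filter on low signal was possible. The 3 arrays of 0 dpa had deviations that correlated between the sets of 10 and 20 dpa by 0.69 to 0.71 for the same number. By stage and replicate number the 24 columns stand for 15 arrays. The alternative fit with the 0 dpa columns as samples entered the 0 dpa columns of both sets as separate samples. It took no account of that correlation.

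Each array minus the 0 dpa mean of its set was fitted over the 12 arrays of 5, 10, 20 and 50 dpa in R 4.3.3 with the two-sided test of limma 3.58.1 (lmFit, then eBayes), adjusted by Benjamini-Hochberg over 10101 probe sets, with a threshold of 0.05. The 4 stages were normalized in separate sets, and the error of the 0 dpa mean is not in the standard errors, which follow ± throughout. P values set a mean difference against the spread within stages, pooled over the 12 arrays and moderated across probe sets. Each stage has 3 arrays labelled biological replicates, and that number limits the precision. The 108 control probe sets were left out. Steps were compared as contrasts in the same fit. The script was tested on simulated data.

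Symbols came from the platform annotation of 2007. Where several probe sets shared a symbol (83 genes), the one whose ID has no _s, _x or _a mark was used. Genes were named by rule: the 15 largest rises and 15 largest falls of at least 2-fold without overlap, from each list the 2 genes of largest difference and the 2 of smallest p, all genes of lists under 3, and a fixed set (ACO5, HSP17-6, MAN2, PSBP, PsbQ, EXP1, RIN, TDR4, TAGL1, Psy1, E8, PG2, TBG4, lin5, PCNA). Other list members were named after their values were seen. The comparison, the 32 lists (317 genes) and the naming rule were chosen with earlier results of these data known, so the counts are descriptions. Replicate numbers of 10 and 20 dpa were not used as pairs in the main fit. They were tried as a block among the alternatives, with other fits, bases, scalings and left-out arrays. Plots were drawn with matplotlib.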

Additional observations from a re-analysis of the deposited data

Results flagged for a closer look

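Control probe sets, which are outside the 10101 probe sets of the comparison, were higher at 20 than at 10 dpa in 20 cases past the limma threshold, and lower in 3. Those for ribosomal RNA differed most, by 1.13 for AFFX-Le_17SrRNA_at and 1.81 for AFFX-Le_25SrRNA_at. Housekeeping transcripts followed with 1.05 for AFFX-Le_GlutTrans_3_at, 0.64 for AFFX-Le_GlutTrans_5_at, 0.53 for AFFX-Le_Ubiquitin_5_at, 0.62 for AFFX-Les-ef1a-5_a_at and 0.35 for AFFX-Les-ef1a-5_x_at. The labelling spike AFFX-Les-r2-Bs-lys-M_at differed by 0.56. Hybridisation spikes differed by 0.37 for AFFX-BioB-3_at, 0.35 for AFFX-BioB-M_at, 0.30 for AFFX-BioDn-3_at and 0.23 for AFFX-CreX-3_at. The spikes with tomato array names gave 0.43 for AFFX-Les-r2-Ec-bioB-3_at, 0.36 for AFFX-Les-r2-Ec-bioB-M_at, 0.34 for AFFX-Les-r2-Ec-bioC-5_at, 0.38 for AFFX-Les-r2-Ec-bioD-3_at and 0.41 for AFFX-Les-r2-Ec-bioD-5_at. The remaining ones were 0.46 for AFFX-r2-Ec-bioB-3_at, 0.29 for AFFX-r2-Ec-bioD-3_at and 0.41 for AFFX-r2-Ec-bioD-5_at. The 3 lower ones were AFFX-Les-actin-3_at (-0.36), AFFX-r2-TagO-5_at (-0.27) and AFFX-r2-TagQ-5_at (-0.34). All are log2 differences relative to 0 dpa, and their part in the results was not tested.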

How the results depend on the processing

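The counts over all probe sets kept their direction and stayed within 1.5 times of the values given under every alternative run. Called probe sets numbered 3667 with only the 6 arrays of 10 and 20 dpa, 2376 with the 0 dpa columns as samples, 2804 in the methods' t-test, 3532 with the 0 dpa median as base, 3469 with each array centred on its median and 3433 after quantile normalization, where 1 call had the opposite sign. Leaving out 1 array at a time gave 1405 to 1757 higher and 1454 to 1839 lower, 243 to 270 and 212 to 221 of them at least 2-fold. Of the 462 calls of at least 2-fold, 445 remained in the methods' t-test, 461 with the 0 dpa columns as samples, 460 without 10 dpa replicate 3 and all under the other alternatives. Against the step before, left-out arrays gave 1020 to 1529 above and 976 to 1355 below, and for the step after, 861 to 1188 and 915 to 1158. With the replicate block, 3489 probe sets were called, 3157 of them shared with the same sign. Same-numbered arrays of 10 and 20 dpa had deviations that correlated by 0.023 to 0.076, and 5 of 6 arrays correlated best with their own number. Named genes gave 1640 unchanged calls, 30 lost, 13 gained and 0 reversed over these alternatives. With the mean of a gene's probe sets, IAA16 (-0.32) and IAA17 (0.15) no longer passed. Counts of the lists moved by over 1.5 times in 99 cases and not in 1005, and the cause was not tested. Such moves were not confined to the shortest lists, and the list of 20 sugar genes had some.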

Other observations

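Genes outside the lists were found with probe sets of 1 symbol that were called in opposite directions. There were 2 such genes, H1 and psi14B. H1 was higher by 0.70 on one probe set and lower by 0.50 on another, and psi14B was lower by 0.54 on one and higher by 0.29 on another. These were seen in the data and not chosen by the naming rule.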
